A study of Homo sapiens with 6 samples.

Results

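The TCEAL family genes were described in SU-CCS-1, an established human line of clear cell sarcoma (CCS), a tumor driven by the fusion of EWSR1 to ATF1 (EA1). The members were the rows of the counts table whose gene name is TCEAL1, TCEAL3, TCEAL4, TCEAL7, TCEAL8 or TCEAL9, which gave 6 of the 18118 genes in the table. All 6 passed the filter on low counts, as did 14571 genes in all. The library labels give 3 conditions with 2 libraries each: SU-CCS-1 cells with a negative control siRNA, called control here, with a first siRNA against EA1 (EA1 siRNA 1) or with another (EA1 siRNA 2). Every library comes from the same fusion-bearing line, so that the control cells express EA1 and the knockdown cells carry the fusion gene too. RNA was taken 48 h after transfection. Nothing in the labels says that the replicates were separate cultures, so the p-values measure the spread between libraries, which may be technical, and all libraries come from 1 line. A log2 fold-change (log2FC) above 0 means that a gene was higher in control, that is, that it fell in knockdown, which is the direction the study uses.

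TCEAL genes encode small acidic proteins that resemble the elongation factor TFIIS, which helps stalled RNA polymerase II to resume transcription. They form a cluster on the long arm of the X chromosome together with the BEX genes, to which they are related. Members of both families are best known from brain and endocrine tissue, and several are silenced in tumors. The study names TCEAL8 as a gene higher in the presence of EA1 and uses these libraries among others for it, so its own change below is a description and not independent evidence. The question here was whether its paralogs changed with it.

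The libraries held 5942808 to 7599305 counted reads, at which 3 counts, taken as the smallest level that can be told from 0, equal 0.395 to 0.505 CPM (counts scaled to the raw library total). This floor covers counting error only and is not on the scale of the levels below, which are normalised CPM (counts scaled to the TMM-adjusted library size). ATF1, the fusion partner that provides the DNA-binding domain, had 82.2 and 87.4 normalised CPM in control and 20.3 to 22.3 in the 4 knockdown libraries, and fell with a log2FC of 2.03 ± 0.13 (SE) for EA1 siRNA 1 and 1.94 ± 0.13 for EA1 siRNA 2. EWSR1, the other partner, had a log2FC of 0.11 ± 0.11 and 0.04 ± 0.11 and was not called for either siRNA. Counts per gene do not tell reads of the fusion from those of native ATF1 or EWSR1. How much of the fall of ATF1 was that of the fusion was not tested. The 10 markers of CCS and the melanocyte lineage were all in the table and summed to 3259 to 3435 normalised CPM in control and 8983 to 14143 in knockdown. PMEL had the largest level, with means of 1217 in control and 4834 and 5992 under EA1 siRNA 1 and 2. Called lower in control were 9 of the 10 with EA1 siRNA 1 and 8 with EA1 siRNA 2, against 19.9% and 18.5% of all genes tested. SOX10 was not called with either siRNA, nor ERBB3 with EA1 siRNA 2. Of markers of other cells, 2 of 6 fibroblast genes were in the table (2.69 to 3.44 summed normalised CPM in control, 8.87 to 22.9 in knockdown), 1 of 5 epithelial genes (0.140 to 2.57 over all libraries), 2 of 3 endothelial genes (0.770 to 2.94), 1 of 3 neuronal genes (0.128 to 0.448 in control, 1.24 to 3.94 in knockdown), and 0 of 5 blood and 0 of 3 muscle genes. The part of these marker changes in the TCEAL values was not tested. In bulk RNA, fewer cells that express a gene and less of its RNA per cell cannot be told apart.

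In hg38 (GENCODE release 44), the 6 members lie within 378 kb of the X chromosome. TCEAL8 (chrX:103252995-103255192) is on the minus strand, and the others, TCEAL7 (chrX:103330229-103332326), TCEAL9 (chrX:103356489-103358462), TCEAL4 (chrX:103576231-103587729), TCEAL3 (chrX:103607451-103629690) and TCEAL1 (chrX:103628704-103630953), are on the plus strand. Each has 3 exons in its canonical transcript. Counted from the start of TCEAL8, the starts of TCEAL7 and TCEAL9 are 75.0 and 101 kb away, and those of TCEAL4, TCEAL3 and TCEAL1 are 321, 352 and 374 kb away. No tested gene starts in the stretch between BEX3, which follows TCEAL9, and TCEAL4.

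Since the fusion keeps the DNA-binding domain of ATF1, promoters were searched for the ATF/CREB and AP1 motifs on which the motif analysis of the study centred. RefSeq promoters (GRCh38.p14, from 250 bases before to 50 after the start) were given for TCEAL1, TCEAL3, TCEAL4, TCEAL8 and TCEAL9, and the entries of the family were identical to the hg38 sequence. On both strands, none of the 5 held TGACGTCA, TGANNTCA or TGAGTCA, which stood in 1.85%, 11.5% and 4.95% of all 35116 promoters. This window is shorter than the promoter region of the study, so sites further from the start were not searched. A pair of blocks that was seen in the sequences themselves and not searched for beforehand is TGACG followed by CACGTG, here in capitals. The windows of 30 bases are shown because TCEAL8, which fell, and TCEAL1 and TCEAL3, which were not called, hold this pair:
TCEAL8: ctcagtgaTGACGcgactctCACGTGacca
TCEAL9: ctcactggTGACGtagatctCATGTGacca
TCEAL3: agctcgggTGACGcggcgctCACGTGaccc
TCEAL1: cggcagTGACGcgcgtccctCACGTGacca
TCEAL4: aactcctgggctgcggcattCACGTGatct
These are chrX:103255177-103255206 on the minus strand, and chrX:103356449-103356478, chrX:103607863-103607892, chrX:103628899-103628928 and chrX:103585485-103585514 on the plus strand. TCEAL9 differs in the second block, which reads CATGTG and is also given in capitals, and TCEAL4 lacks TGACG. Over all promoters and on either strand, TGACG occurred in 24.6%, CACGTG in 7.26%, and TGACG followed by CACGTG after 7 to 9 bases in 0.0712%, or 25 entries. Among these were the promoters of TCEAL8, TCEAL3 and TCEAL1 and those of 5 other genes of the cluster (TCEAL2, TCEAL5, TCEAL6, BEX1 and BEX3). The spacing of 7 to 9 bases is that of the family's own promoters. The share over all promoters is thus no independent measure of how unusual the pair is. Of the members that fell, TCEAL8 held the pair, TCEAL9 did not, and TCEAL7 was not searched.

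A string of 12 TGA repeats, the other element of the study's motif analysis, lies 2.98 kb beyond the 3′ end of TCEAL8 and 5.19 kb from its start, outside any GENCODE gene. It is shown with 20 bases on either side as read on the plus strand, repeats in capitals.
TGA string: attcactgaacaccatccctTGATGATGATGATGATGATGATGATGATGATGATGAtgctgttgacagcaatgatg
The repeats cover chrX:103249981-103250016. Strings of at least 8 uninterrupted TGA repeats, on either strand, were found within 10 kb of the start of 1 of the 6 members (TCEAL8) and of 0.424% of 20033 protein-coding genes. The study itself describes this string near TCEAL8, within a strongly bound EA1 site of human CCS cell lines, so that its presence there is no independent observation. Binding was not examined here. TCEAL9 and TCEAL7 had no string of at least 8 uninterrupted repeats within 10 kb of their starts. The study counted shorter strings too and allowed gaps between repeats. That looser rule was not applied here, so strings of that kind near the members or other genes were not counted.

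TCEAL8 was the member with the highest level and TCEAL9 the next. Per kb of canonical transcript, TCEAL8 stood at 291 ± 30.8 normalised CPM per kb in control (SD, n = 2), higher than 99.1% of the tested genes with a known length. TCEAL9, also known as WBP5 for its binding to WW domains, stood at 136 ± 38.1 and above 97.4% of genes. TCEAL7, TCEAL4, TCEAL1 and TCEAL3 followed at 35.2 ± 4.98, 30.9 ± 11.1, 16.9 ± 1.49 and 6.56 ± 3.95 CPM per kb. The control libraries of neighbours in this order did not overlap, except those of TCEAL7 (38.7 and 31.6 CPM per kb) and TCEAL4 (38.7 and 23.1), which therefore had no order beyond their spread. The means of TCEAL4 and TCEAL1 differed by little more than the SD of TCEAL4. With the length of all annotated exons in place of the canonical transcript, TCEAL7 (34.8 ± 4.93) stood above TCEAL4 (15.6 ± 5.56) in control, and TCEAL4 (19.5 and 11.6 CPM per kb) and TCEAL1 (13.5 and 11.9) overlapped.

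TCEAL8, TCEAL9 and TCEAL7 fell in knockdown with both siRNAs, and TCEAL1, TCEAL3 and TCEAL4 were not called with either. With EA1 siRNA 1, 3 of the 6 members were called higher in control and 0 lower, against 20.3% and 19.9% of all genes tested. With EA1 siRNA 2 the counts of members were again 3 and 0, against 18.2% and 18.5%, and for control against the mean of both siRNAs 3 and 0 against 22.1% and 21.5%. These comparisons share the control libraries. The same 3 members had both control libraries above all 4 knockdown libraries, which held for 27.3% of all genes tested.

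**Figure D1:**
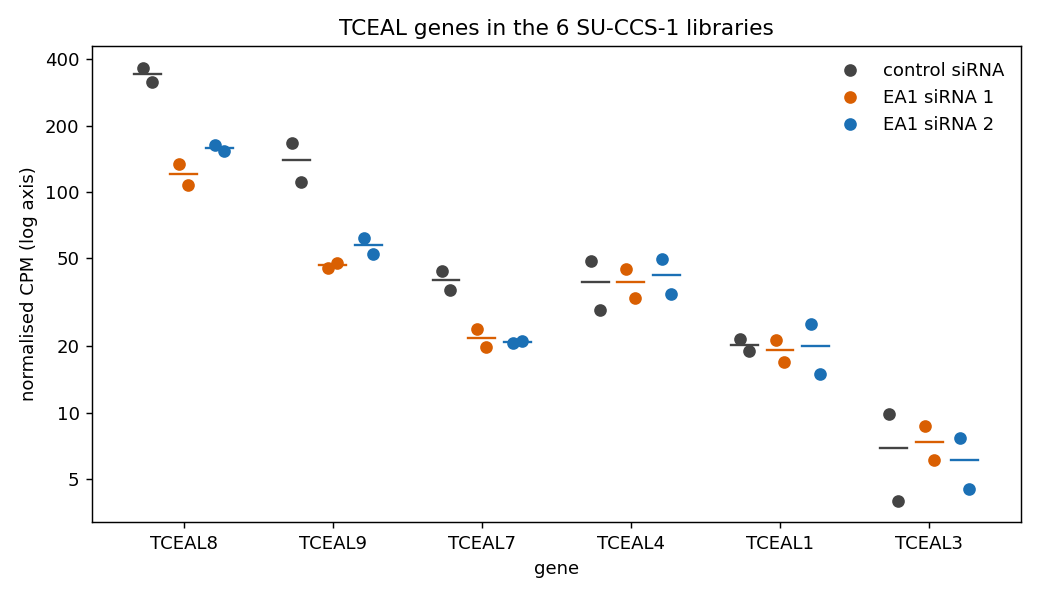
Normalised CPM (log axis) of each TCEAL gene in each library. Points are libraries, short lines are the means of the 2 libraries of a condition. TCEAL8, TCEAL9 and TCEAL7 have both control points above all knockdown points, from 316 against at most 164 for TCEAL8 to 35.9 against at most 23.9 for TCEAL7, and the points of TCEAL4, TCEAL1 and TCEAL3 overlap.

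TCEAL8, whose own function is little known, had 367 and 316 normalised CPM in the control libraries (2455 and 2460 counts). It had 135 and 107 under EA1 siRNA 1 (946 and 651 counts) and 164 and 153 under EA1 siRNA 2 (923 and 1091 counts). Control did not overlap with either knockdown, and the lower control library lay far above the highest knockdown library. The log2FC was 1.50 ± 0.13 (SE) with EA1 siRNA 1 and 1.11 ± 0.13 with EA1 siRNA 2 (edgeR quasi-likelihood test, adjusted p = 4.8e-06 and 4.6e-05, n = 2 libraries a condition). The knockdown level was therefore 35.4% and 46.4% of control. In control against the mean of both siRNAs, 6.28% of all genes had a higher log2FC than TCEAL8.

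TCEAL9 had 167 and 112 normalised CPM in control, 45.5 and 47.8 under EA1 siRNA 1 and 62.1 and 52.5 under EA1 siRNA 2. Its control libraries lay further apart than those of TCEAL8 but both above every knockdown library. The log2FC was 1.58 ± 0.17 with EA1 siRNA 1 (edgeR, adjusted p = 2.9e-05) and 1.28 ± 0.17 with EA1 siRNA 2 (adjusted p = 1.5e-04), and the knockdown level was 33.5% and 41.1% of control. A higher log2FC was found for 5.24% of all genes in control against the mean of both siRNAs.

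TCEAL7, described as a growth-restraining gene that is silenced in ovarian cancer, had 43.9 and 35.9 normalised CPM in control. It had 23.9 and 19.8 under EA1 siRNA 1 and 20.6 and 21.1 under EA1 siRNA 2, from 116 to 293 counts a library. The control libraries were again above all others, by a smaller distance. The log2FC was 0.86 ± 0.17 and 0.93 ± 0.17 (edgeR, adjusted p = 0.0017 and 0.0012), and the knockdown level was 55.0% and 52.4% of control.

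TCEAL4 had 48.9 and 29.2 normalised CPM in control, 44.9 and 33.1 under EA1 siRNA 1 and 49.8 and 34.7 under EA1 siRNA 2. The spread within each condition was larger than the difference between conditions. In each condition the library numbered 1 held the higher value, as it did for TCEAL8, TCEAL1 and TCEAL3 too. The log2FC was -0.01 ± 0.25 and -0.11 ± 0.25, and for the mean of both siRNAs -0.06 with a 95% interval from -0.53 to 0.40. TCEAL1, a nuclear protein that modulates transcription from several promoters, had 21.6 and 19.0 CPM in control, 21.3 and 17.0 under EA1 siRNA 1 and 25.1 and 15.0 under EA1 siRNA 2. Its values overlapped throughout, with a log2FC of 0.08 ± 0.24 and 0.03 ± 0.24 and an interval from -0.40 to 0.50 for the mean of both siRNAs. TCEAL3 was the lowest member, with 9.88 and 3.99 CPM in control, 8.68 and 6.09 under EA1 siRNA 1 and 7.65 and 4.49 under EA1 siRNA 2, from 31 to 66 counts. Its log2FC was -0.11 ± 0.42 and 0.19 ± 0.44, and the interval for the mean of both siRNAs, from -0.77 to 0.85, was the widest of the family. Its upper end lies below the log2FC of TCEAL8 (1.30) and close to that of TCEAL7 (0.90), but the interval for EA1 siRNA 2 alone, from -0.76 to 1.15, holds the log2FC of both TCEAL7 (0.93) and TCEAL8 (1.11) for that siRNA.

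The gene models leave some of these counts uncertain. TCEAL1 and TCEAL3 share 287 exonic bases on the same strand, 17.9% of the annotated exons of TCEAL1 and 12.5% of those of TCEAL3, and 80 of these bases are in the canonical transcript of TCEAL1 and 0 in that of TCEAL3. No other exon of any gene overlaps a member. Among windows of 50 bases, the length of the reads, none of those within exons of TCEAL1, TCEAL7, TCEAL8 and TCEAL9 occurs at a further place in hg38, against 25 of 2315 windows of TCEAL4 (1.08%) and 214 of 1864 of TCEAL3 (11.5%). The 3 members that fell thus have no exact copy of a read's length elsewhere. Of the 25 windows of TCEAL4, 21 match exons of TCEAL2.

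**Figure D2:**
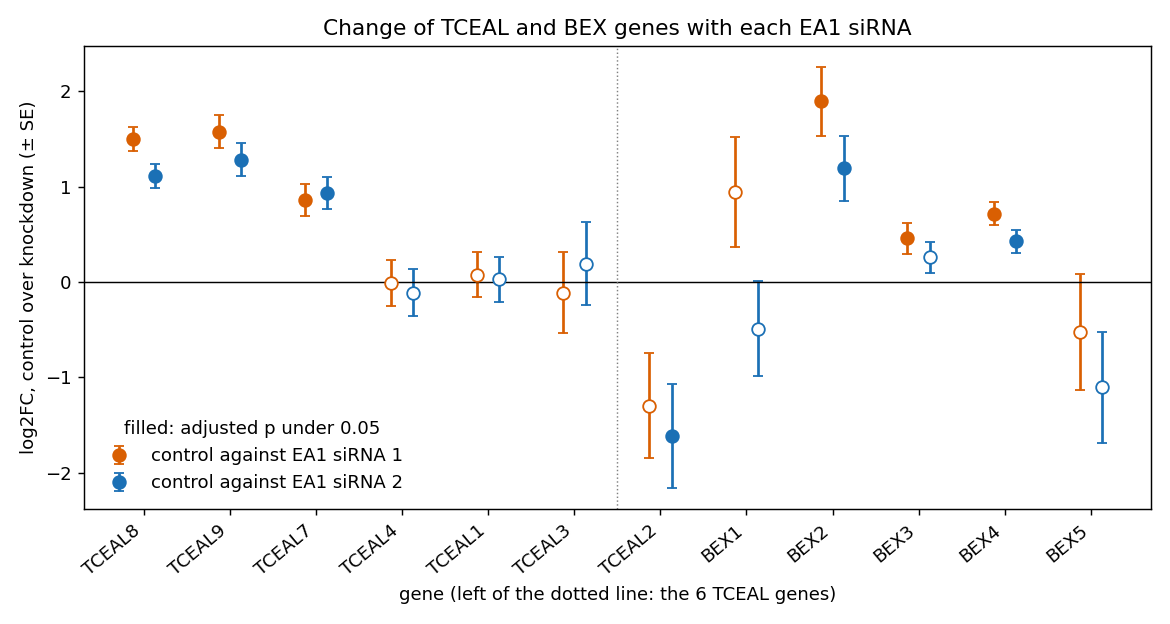
The log2FC (± SE) of control over knockdown for the 6 TCEAL genes, TCEAL2 and the 5 BEX genes with each EA1 siRNA. Filled points have an adjusted p under 0.05 (edgeR). TCEAL8, TCEAL9 and TCEAL7 are filled and positive with both siRNAs, from 0.86 to 1.58, TCEAL4, TCEAL1 and TCEAL3 are open and near 0, and TCEAL2 is negative.

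Whether the paralogs changed by another amount than TCEAL8 was tested on the log2 ratio of each gene to TCEAL8 in the same library (limma), since separate calls do not show it. The SE and intervals of this limma test came almost wholly from a trend over all genes. They do not measure the spread of each paralog's own ratio between libraries. The ratio of TCEAL9 to TCEAL8 was -1.14 and -1.50 in control, -1.56 and -1.16 under EA1 siRNA 1 and -1.40 and -1.54 under EA1 siRNA 2, all on the log2 scale. These overlap, and the ratio differed between control and the mean of both siRNAs by 0.10 with a 95% interval from -0.29 to 0.48 (limma, adjusted p = 0.64). No difference in the size of the fall was thus detected between TCEAL9 and TCEAL8, within that interval.

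The ratios of TCEAL1, TCEAL3 and TCEAL4 to TCEAL8 were lower in control than in every knockdown library. For TCEAL4 they were -2.90 and -3.42 in control and -2.13 to -1.58 in knockdown, a difference of -1.39 ± 0.21 (SE). The differences were -1.23 ± 0.24 for TCEAL1 and -1.35 ± 0.32 for TCEAL3, and that of TCEAL3 was -0.84 without control replicate 2 (limma, adjusted p = 0.044). All 3 were called by limma (adjusted p = 1.1e-10 for TCEAL4, 3.8e-07 for TCEAL1 and 2.8e-05 for TCEAL3), and by the difference of the edgeR estimates (a test chosen with the data in view; adjusted p = 4.6e-05, 7.9e-05 and 0.0075). With each siRNA alone these 3 were called by limma too, but for TCEAL3 with EA1 siRNA 2 the call (adjusted p = 0.0084) is lost with the edgeR estimates (adjusted p = 0.079), without control replicate 2 (adjusted p = 0.30) or without EA1 siRNA 2 replicate 1 (adjusted p = 0.15). For TCEAL1 under EA1 siRNA 2 the limma call is lost without EA1 siRNA 2 replicate 1 (adjusted p = 0.058). Against the same reference, 85% of all genes were called as falling less than TCEAL8 or rising, and 2.31% as falling more, so that 3 of 5 paralogs is a smaller share than that of all genes. The limma p-values rest on the spread pooled over all genes, not on that of each ratio, which for TCEAL3 was wide. All of these tests share the error of TCEAL8 itself. In simulated counts, the share of unchanged genes with an unadjusted p under 0.05 reached 58.7% for the worst of 100 single reference genes (54.2% with the edgeR estimates), and how far the measured values of TCEAL8 are off was not tested.

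TCEAL7 lay between. Its ratio to TCEAL8 was -3.06 and -3.13 in control, -2.48 and -2.42 under EA1 siRNA 1 and -2.97 and -2.85 under EA1 siRNA 2. Its control values were the lowest, and those with EA1 siRNA 2 came close to them. The difference was -0.64 ± 0.26 with EA1 siRNA 1 (limma, adjusted p = 0.015) and -0.18 ± 0.26 with EA1 siRNA 2 (adjusted p = 0.51). It was -0.41 ± 0.22 for the mean of both (adjusted p = 0.072). These SE, too, come from the trend over all genes and exceed the spread of this ratio within each condition. The call with EA1 siRNA 1 is lost without control replicate 1 or 2, and the difference for the mean of both is called with the edgeR estimates (adjusted p = 0.037). The difference between the siRNAs in this ratio was not called in the fit without a replicate term (0.46, limma, adjusted p = 0.21). With a replicate block it was called (limma, adjusted p = 0.045), as was the difference for the mean of both (limma, adjusted p = 0.014). In the exact two-sided permutation test of both control libraries against the 4 knockdown libraries, the ratios of TCEAL1, TCEAL3, TCEAL4 and TCEAL7 each gave p = 0.133, the smallest p this design allows, and that of TCEAL9 gave p = 0.533.

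**Figure D3:**
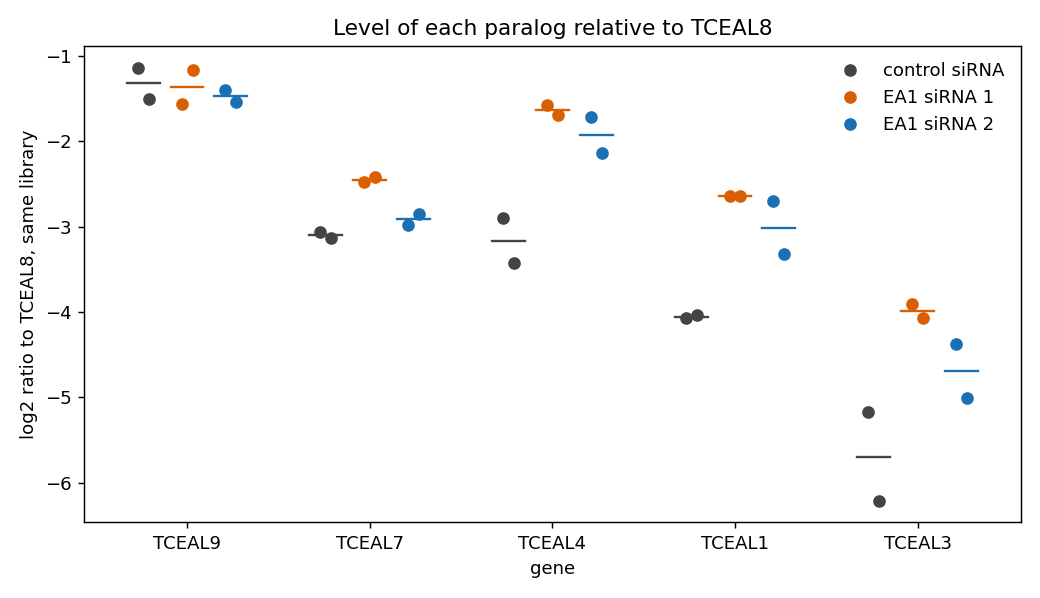
Log2 ratio of each paralog to TCEAL8 in the same library (points; short lines are condition means). The control points of TCEAL4, TCEAL1 and TCEAL3 lie below their knockdown points, with mean differences of -1.39, -1.23 and -1.35, those of TCEAL9 overlap the knockdown points, and those of TCEAL7 lie below by a smaller distance.

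The make-up of the family signal is given here as a description, with no test. The summed normalised CPM of the 6 members was 659 and 516 in control, 279 and 231 under EA1 siRNA 1 and 330 and 281 under EA1 siRNA 2. Per kb of canonical transcript, TCEAL8 made up 56.8 ± 3.97% (SD, n = 2) of the family in control, 46.4 ± 1.48% under EA1 siRNA 1 and 51.2 ± 3.18% under EA1 siRNA 2. TCEAL4 made up 5.89 ± 1.11% in control and 13.9 ± 1.21% and 12.5 ± 1.80% in knockdown, where it ranked above TCEAL7 in all 4 libraries. With the length of all exons this rank turned in 3 of the 4 knockdown libraries, all but EA1 siRNA 2 replicate 1. On that scale the shares in control, under EA1 siRNA 1 and under EA1 siRNA 2 were 3.65%, 8.92% and 7.94% for TCEAL4, and 8.32%, 11.0% and 8.71% for TCEAL7. Those of TCEAL8 were 67.6%, 57.5% and 62.4%. TCEAL8 stayed the first and TCEAL9 the next member in all 6 libraries. Shares of a sum are not independent, and the level of TCEAL4 itself was not called as changed.

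**Figure D4:**
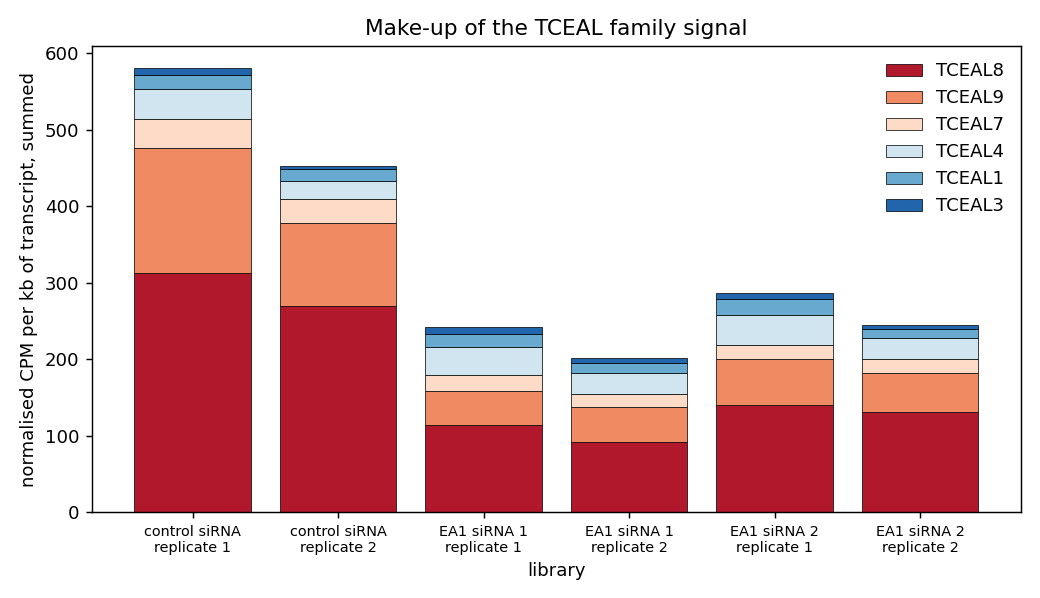
Normalised CPM per kb of canonical transcript of the 6 TCEAL genes, stacked, in each library. The control columns are the highest, and the segments of TCEAL8 and TCEAL9 shrink in all 4 knockdown libraries, from 313 and 269 to between 91.3 and 140 for TCEAL8.

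Between the siRNAs, 2.24% of all genes tested were called, and no member was in the fit without a replicate term. This share rests on single libraries: of 326 genes called, 116 were higher and 210 lower with EA1 siRNA 1, against 13 and 20 without EA1 siRNA 1 replicate 2 and 317 and 471 without EA1 siRNA 2 replicate 2. TCEAL8 had the lower level with EA1 siRNA 1, with a log2FC of EA1 siRNA 1 over EA1 siRNA 2 of -0.39 ± 0.13 (edgeR, unadjusted p = 0.011, adjusted p = 0.15). A replicate block gave -0.40 for TCEAL8 and called it (edgeR, adjusted p = 0.029). The difference of TCEAL9 was -0.29 ± 0.18 (edgeR, adjusted p = 0.46), with a 95% interval from -0.69 to 0.10, and those of the other 4 members lay between -0.10 and 0.31. The level of ATF1 itself differed by -0.09 ± 0.14 (edgeR, adjusted p = 0.82).

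Of the other TCEAL genes, TCEAL2 was in the table and TCEAL5 and TCEAL6 were not. TCEAL2 had 18 and 7 counts in control, 20 and 36 under EA1 siRNA 1 and 36 and 32 under EA1 siRNA 2. Its direction was opposite to that of TCEAL8, with a log2FC of -1.61 ± 0.55 with EA1 siRNA 2 (edgeR, adjusted p = 0.037) and -1.30 ± 0.56 with EA1 siRNA 1 (adjusted p = 0.085). Its counts were at or close to those of TCEAL3, the lowest member, in 3 of the 4 knockdown libraries, and below those of the other members in all 6 libraries.

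Of the 5 BEX genes, all were tested, 3 fell under EA1 siRNA 1 and 2 under EA1 siRNA 2, and 0 were called in the other direction, where 20.3% and 18.2% of all genes fell and 19.9% and 18.5% rose. BEX2, which lies 55.8 kb from TCEAL8 and next to TCEAL7, had 66 and 65 counts in control, 19 and 13 under EA1 siRNA 1 and 27 and 23 under EA1 siRNA 2. Control did not overlap with either knockdown, and the log2FC was 1.90 ± 0.36 and 1.19 ± 0.34 (edgeR, adjusted p = 0.0014 and 0.017). BEX4, which lies 40.1 kb from TCEAL8 on its other side, had 1330 and 1244 counts in control and 625 to 944 in knockdown, with a log2FC of 0.72 ± 0.12 and 0.43 ± 0.12 (edgeR, adjusted p = 6.1e-04 and 0.015). BEX3, known for a role in neurotrophin receptor p75 signaling and cell death, lies next to TCEAL9 and had a log2FC of 0.46 ± 0.16 and 0.26 ± 0.16, called for EA1 siRNA 1 (edgeR, adjusted p = 0.041) and not for EA1 siRNA 2 (adjusted p = 0.24). The difference between the siRNAs itself was not called (edgeR, adjusted p = 0.61). BEX1 and BEX5 had 6 to 18 counts a library and were not called.

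Within 1 Mb of the start of TCEAL8, 29 other genes were tested, of which 6 were called higher in control and 2 lower in control against the mean of both siRNAs, where 22.1% and 21.5% of all genes were. Besides TCEAL7, TCEAL9, BEX2 and BEX4, the higher ones were GPRASP2, a gene for a G protein-coupled receptor sorting protein (0.82 ± 0.13), whose exons lie in the read-through gene ARMCX5-GPRASP2 (-0.19 ± 0.25), and MORF4L2, a subunit of chromatin complexes (0.42 ± 0.09). SLC25A53, a mitochondrial carrier, was among the lower ones (-1.30 ± 0.32). The median log2FC of the 20 genes that are neither TCEAL nor BEX was -0.12, against -0.01 over all genes tested. In the list of 42 X-chromosome neighbours, which holds the BEX genes and reaches further, 31 were tested. Of these 9 were called higher and 6 lower in control against the mean of both, with a median of 0.09. Besides GPRASP2, BEX2, BEX4 and SLC25A53, those called for each siRNA in 1 direction included BTK, a signaling kinase of B cells (-3.27 ± 0.70 for the mean of both), the armadillo repeat genes ARMCX1 (-1.26 ± 0.12) and ARMCX4 (-0.88 ± 0.24), and HNRNPH2, a splicing factor (-0.76 ± 0.12), all lower in control.

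**Figure D5:**
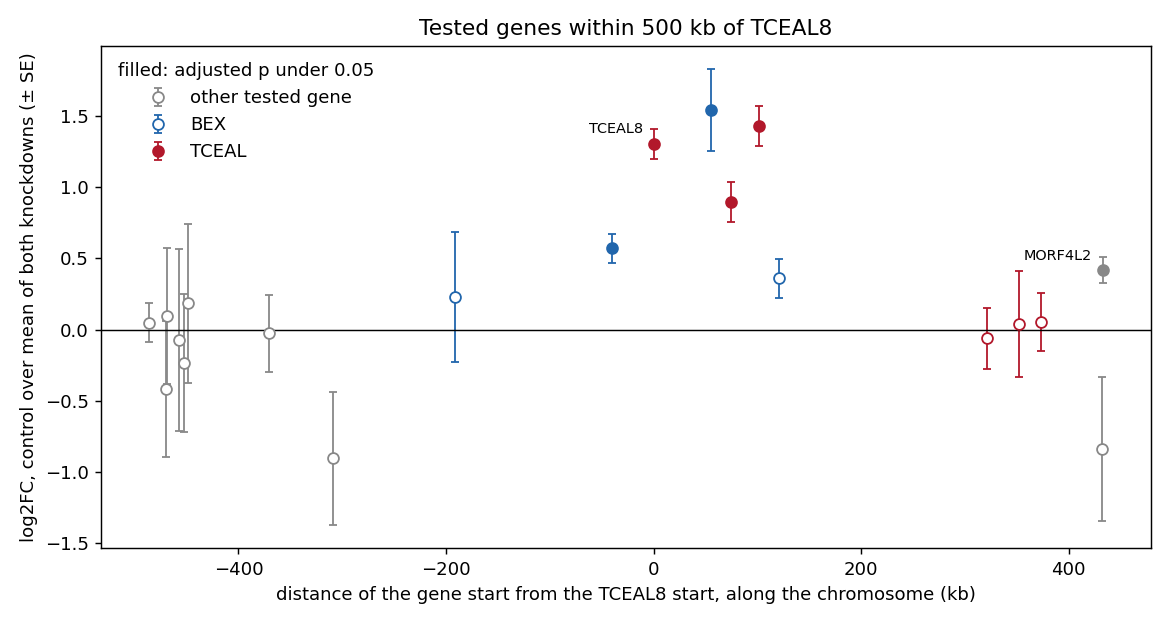
The log2FC (± SE) of control over the mean of both knockdowns for each tested gene within 500 kb of TCEAL8, against the distance between gene starts in kb along the chromosome. Filled points have an adjusted p under 0.05. The filled TCEAL and BEX points lie between -40.1 and 101 kb, and the TCEAL points from 321 kb on are open and near 0.

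Of the elongation factors after which the TCEAL proteins are named, TCEA1, which encodes TFIIS itself, had a log2FC of -0.03 ± 0.10 and -0.05 ± 0.10, and TCEA2 of 0.16 ± 0.25 and 0.46 ± 0.26. Of 41 listed genes of TFIIS and other elongation factors, 39 were tested, 8 were called higher and 3 lower in control under EA1 siRNA 1 (20.3% and 19.9% of all genes) and 6 and 2 under EA1 siRNA 2 (18.2% and 18.5%). The higher calls were thus near the share of all genes, and the medians were 0.07 and 0.07. Called higher with both siRNAs were ELL2 of the super elongation complex (0.92 ± 0.09 for the mean of both), SSRP1 and SUPT16H, which together form the histone chaperone FACT (0.81 ± 0.11 and 0.66 ± 0.10), IWS1, a partner of SUPT6H (0.74 ± 0.09), and CCNT1, the cyclin of P-TEFb (0.64 ± 0.09). Called lower with both were GTF2F2, a subunit of TFIIF (-0.85 ± 0.11), and AFF1, a scaffold of the super elongation complex (-0.40 ± 0.08).

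Over the 6 libraries, the genes whose pattern was most like that of TCEAL8 came from outside the family. The measure was the root mean square difference of log2 CPM after each gene was centred on its mean, over 14570 genes. The nearest were METTL21A, a lysine methyltransferase of HSP70 proteins (0.072), RASGRP3, an activator of RAS (0.074), TACC2, a centrosomal coiled-coil protein (0.084), SEPTIN6, a GTP-binding cytoskeletal protein (0.084), and MAP7, a microtubule-binding protein (0.088). METTL21A, for example, had 68.7 and 66.3 normalised CPM in control, 24.6 and 21.9 under EA1 siRNA 1 and 31.2 and 30.9 under EA1 siRNA 2. TCEAL9 ranked 64 (0.173) and TCEAL7 446 (0.274), whereas TCEAL1, TCEAL4 and TCEAL3 ranked 5357, 6966 and 9057. The libraries shared by all genes fall into control and knockdown, so that a gene ranks high in this order largely through a fall of similar size.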

How the data were processed

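RNA-seq was performed on polyA RNA of 6 SU-CCS-1 libraries, 2 for each of 3 conditions. The authors deposited raw read counts per gene, made by alignment to hg38 with BWA-MEM and counting with featureCounts (1.6.3 in the submitters' processing notes). The gene annotation and the use of strand are not given in the sources used here. Groups were taken from the sample labels. The 2589 rows without a gene name were kept under their identifiers, since each has its own gene ID.

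Genes were filtered by edgeR's filterByExpr (at least 10 counts in enough libraries and 15 in all), scaled by TMM and tested with edgeR's quasi-likelihood test over the 3 conditions, with Benjamini-Hochberg adjustment over all 14571 genes tested and a threshold of 0.05 (R 4.3.3, edgeR 4.0.16, common biological coefficient of variation 0.109). CPM are normalised CPM on the TMM-scaled library sizes. Each gene's log2 ratio to TCEAL8 (prior count 2) was tested with limma 3.58.1, with variances drawn towards a trend over all genes. On simulated counts, 5.76% of genes unchanged against their reference had an unadjusted p under 0.05 with this limma test, averaged over 100 reference genes. With the difference of the edgeR estimates the share was 5.57%. For a single reference gene it reached 58.7% with limma and 54.2% with the edgeR estimates. Alternatives were DESeq2 1.42.0, RLE size factors, other filters and prior counts, libraries thinned to 5942808 counts, a replicate block and leaving out each library. Likeness, promoter and repeat searches carry no test. Genes were placed with GENCODE 44 on hg38, lengths are those of canonical transcripts, and promoters are from RefSeq.

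Named were the 6 members, the targeted genes, the 5 genes most like TCEAL8, and list genes called for both siRNAs (at most 5 a direction) or next to a member. The members and lists were chosen with earlier results of these data known, and the motifs TGACG and CACGTG and their spacing after the promoters were read. ARMCX5-GPRASP2, MORF4L2, TCEA1, TCEA2 and the other BEX genes and TCEAL2 were named after their values were seen.
A called gene of the neighbourhood is not named and is not reported here.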

Additional observations from a re-analysis of the deposited data

How the results depend on the processing

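Over 630 alternative values of 57 results, 561 kept their direction and their side of the threshold (or, for counts of genes, stayed within 1.5 times). The calls of TCEAL8, TCEAL9 and TCEAL7 against control held in every alternative, with log2FC for the mean of both siRNAs from 1.19 to 1.44, 1.11 to 1.73 and 0.75 to 1.07 and adjusted p of at most 7.7e-05, 1.1e-04 and 0.0083 (edgeR or DESeq2). The cause of the changes below was not tested. Signs turned only in values that were not called in the reported fit. For TCEAL4 against EA1 siRNA 1 (-0.01) the value was 0.020 and 0.019 with DESeq2 over 6 and over 4 libraries, 0.012 with thinned libraries and 0.0091 with RLE. Thinning gave -0.0090 for TCEAL1 against EA1 siRNA 2 and -0.026 for TCEAL3 against the mean of both. Leaving out 1 library in turn, where the lone library is assumed to vary like the others, the log2FC against EA1 siRNA 1, EA1 siRNA 2, the mean of both and between the siRNAs ranged for TCEAL1 from -0.053 to 0.25, -0.28 to 0.45, -0.089 to 0.28 and -0.37 to 0.35. For TCEAL3 it ranged from -0.89 to 0.44, -0.59 to 0.76, -0.74 to 0.60 and -0.033 to 0.72, and for TCEAL4 from -0.42 to 0.35, -0.53 to 0.25, -0.47 to 0.30 and -0.34 to 0.17. Between the siRNAs, the log2FC ranged from -0.078 to 0.20 for TCEAL7, from -0.57 to -0.23 for TCEAL8 and from -0.40 to -0.18 for TCEAL9. The ratio of TCEAL9 to TCEAL8 ranged from -0.16 to 0.24, -0.031 to 0.33, -0.086 to 0.28 and -0.089 to 0.31. The ratio to TCEAL8 ranged from -1.36 to -0.73 for TCEAL1 and -1.52 to -0.49 for TCEAL3 against EA1 siRNA 2, and from -0.68 to -0.61 for TCEAL7 against EA1 siRNA 1. With the difference of the edgeR estimates, chosen after seeing the data, TCEAL3 to TCEAL8 against EA1 siRNA 2 was -0.91 and lost its call, and TCEAL7 to TCEAL8 against the mean of both was -0.41 and gained one.

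Counts of genes called depended more on single libraries. Genes lower in control numbered 2898, 2702 and 3131 against EA1 siRNA 1, EA1 siRNA 2 and the mean of both, and 1892 to 3075, 1767 to 2543 and 2030 to 3146 when 1 library was left out, lowest without control replicate 2. Without EA1 siRNA 1 replicate 2 the first was 1913, and DESeq2 over 4 libraries gave 1776 for EA1 siRNA 2. Between the siRNAs, 116 genes were higher and 210 lower with EA1 siRNA 1, against 13 to 317 and 20 to 471 when 1 library was left out. The lowest counts came without EA1 siRNA 1 replicate 2 (13 and 20) and replicate 1 (40 and 45), then without control replicate 1 (66 and 120) and replicate 2 (80 and 126), the highest without EA1 siRNA 2 replicate 2, with 378 lower without its replicate 1. DESeq2 over 6 libraries gave 326 lower.

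Libraries with the same replicate number correlated in their deviations from the condition means by 0.130, 0.199 and 0.144, but each condition has only 2 libraries and nothing in the labels says what a number marks. The replicate block gave 323 genes higher and 530 lower with EA1 siRNA 1. It called TCEAL8 between the siRNAs (-0.40, edgeR, adjusted p = 0.029) and the ratio of TCEAL7 to TCEAL8 for the mean of both (-0.41, limma, adjusted p = 0.014) and between the siRNAs (0.46, adjusted p = 0.045), and turned TCEAL3 for the mean of both to -0.0041. With 31 to 66 counts a library, TCEAL3 had the lowest counts of the members and the widest interval for the mean of both siRNAs. The part of depth in that width was not tested.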
